A study of Mus musculus with 10 samples.

Results

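The genes described here sense foreign RNA inside the cell or carry the interferon response that follows. They are Ddx58, Ifih1, Irf3, Irf7, Irf1, Stat2, Irf9, Oas1a and Isg15, 9 genes chosen by name and followed across every siRNA group on all of their probes. The array holds 16 probes for them, by the name printed in the array design or the current symbol of the probe's accession. All 9 were among the 20662 genes tested. The probe that represents a gene is its brightest one, and 2 further probes (1 of Ddx58 and 1 of Ifih1) were not well above background on any array and were left out.

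J1 is a line of mouse embryonic stem cells, and its RNA was profiled 96 hours after transfection with siRNA. The groups were Ino80 siRNA, Ino80b siRNA, Ino80c siRNA, Ino80e siRNA and non-targeting (NT) siRNA, with 2 arrays each. Ino80 encodes the ATPase of the INO80 chromatin remodelling complex, and the other 3 genes encode accessory subunits. All groups are the same transfected line with no other genetic change named in the labels, and the title of the series asks how the complex takes part in self-renewal. The NT arrays fill slide 1, the Ino80 and Ino80b arrays share slide 2, and the Ino80c and Ino80e arrays share slide 3, as the slide barcodes show. In every comparison with NT, the siRNA and the slide therefore cannot be told apart. A pair of knockdowns on the same slide does not have this limit.

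When viral RNA enters a mammalian cell, the helicases RIG-I (Ddx58) and MDA5 (Ifih1) bind it and signal to the kinases that activate IRF3 and IRF7, which switch on interferon genes. Secreted type I interferon then acts through its receptor, and STAT2 and IRF9 take part in a complex that binds the interferon-stimulated response element (ISRE) in the promoters of genes such as Isg15 and Oas1a. IRF1 acts downstream of interferon gamma. Pluripotent stem cells are known for a weak interferon response compared with differentiated cells.

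Levels below are log2 processed signals relative to the 75th percentile of all probes on the same array, and differences are log2 fold changes with the standard error of a limma fit (n = 2 arrays in each group). A gene is called changed at a Benjamini-Hochberg adjusted p under 0.05 over all genes tested. The share of probes well above background was 66.4% to 79.0% per array, and no spot was saturated. The median of all genes was higher than in NT by 0.16 in the Ino80, 0.13 in the Ino80b, 0.26 in the Ino80c and 0.19 in the Ino80e knockdown, a shift that depends on the scaling and is contained in each fold change. By limma, the targeted RNA fell in its own knockdown for Ino80 (log2 fold change -1.20, adjusted p = 0.00423), Ino80b (-2.0, adjusted p = 0.027) and Ino80c (-2.34, adjusted p = 0.00996). Ino80e RNA was at -1.21 and missed the threshold (adjusted p = 0.0831). Ino80b RNA was also lower in the Ino80c (-1.11 ± 0.34, adjusted p = 0.0886) and Ino80e knockdowns (-1.39 ± 0.34, adjusted p = 0.0888). Neither value was called. All 9 tested stem cell markers were well above background on all 10 arrays.

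In the Ino80 knockdown, 6 of the 9 genes were called, against 12.4% of all genes tested: Oas1a, Ddx58 and Irf9 fell (3 of 9, against 4.77% of all genes lower), and Irf1, Isg15 and Irf3 rose (3 of 9, against 7.65% higher). In the Ino80b knockdown 4 of 9 were called, against 6.48% of all genes, with Ddx58 and Oas1a lower (2.58% of all genes) and Isg15 and Irf1 higher (3.9%). In the Ino80c knockdown Ddx58 and Oas1a fell, 2 of 9 against 6.37% of all genes called and 1.52% called lower, and no gene of the 9 was called higher (4.85% of all genes). In the Ino80e knockdown limma called 0 of the 9, where 0.00484% of all genes (1 gene) were called. At an unadjusted p under 0.05, 5 of the 9 passed there (3 higher, 2 lower), against 28.5% of all genes. The median fold change of the 9 genes was 0.23 in the Ino80, -0.41 in the Ino80b, -0.13 in the Ino80c and 0.21 in the Ino80e knockdown. These 4 comparisons share the same NT arrays, so their values are given side by side and are not independent of each other. In these bulk samples, fewer cells with a transcript and less of it per cell cannot be told apart.

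**Figure D1:**
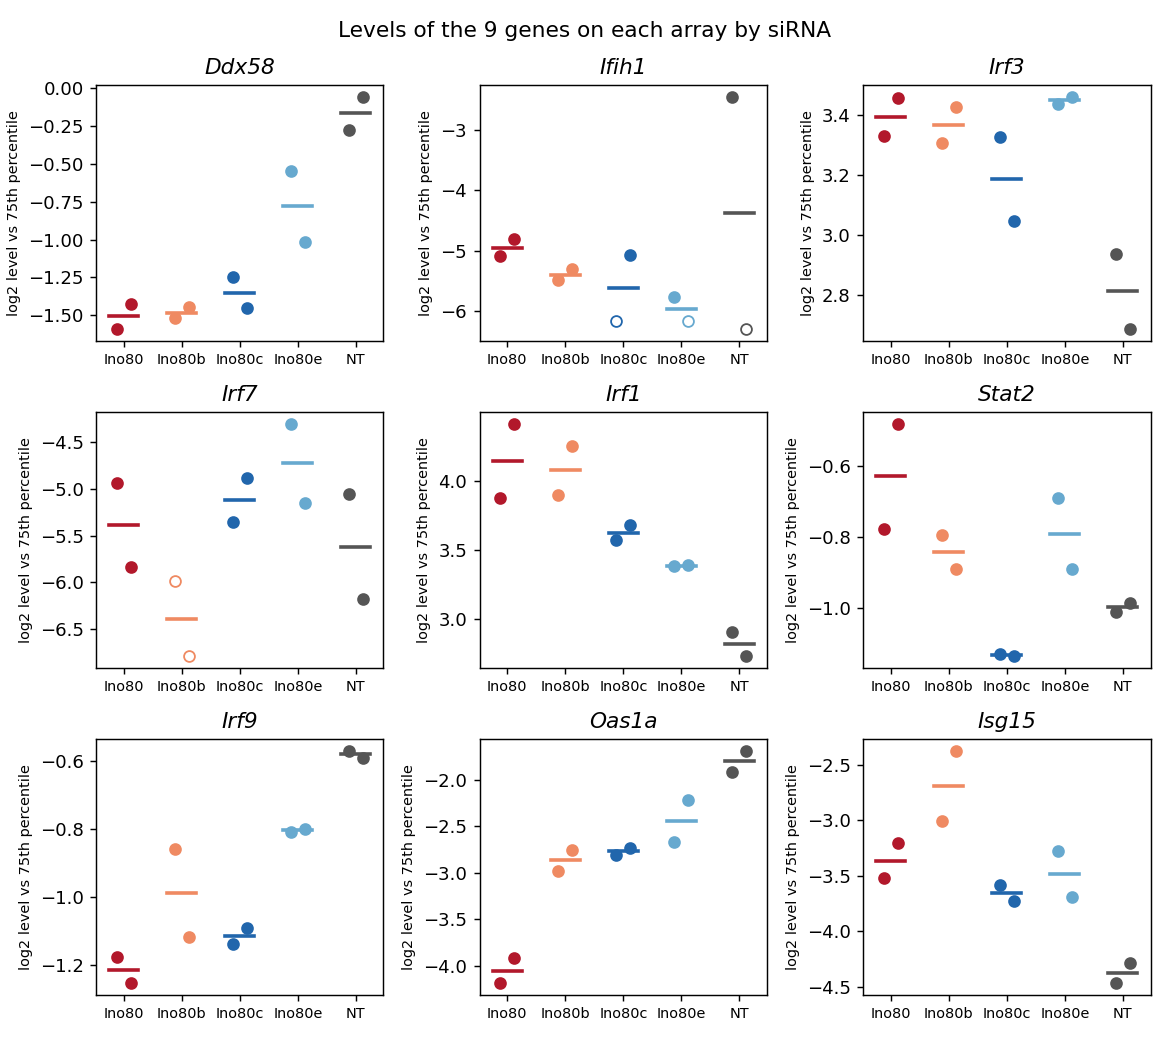
Log2 level of each gene on each array (circles; open circles were not well above background) with the group mean (bar), in the 4 knockdowns and NT, n = 2 arrays a group. Ddx58 and Oas1a are lower on all 8 knockdown arrays than on both NT arrays, Isg15, Irf1 and Irf3 are higher, and Ifih1 is set apart by 1 NT array.

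Ddx58 encodes RIG-I, the helicase that detects short RNAs with triphosphate ends, and its RNA fell in the Ino80, Ino80b and Ino80c knockdowns. The brightest probe, on which its calls rest, lies at chr4:40348348-40348407, minus strand, in the files' build mm7. The promoter, from RefSeq (build GRCm38.p6, chr4:40239776-40240075, minus strand), covers 250 bases before to 50 bases after the transcription start. Capitals in it mark a match to an ISRE core.
Ddx58 probe: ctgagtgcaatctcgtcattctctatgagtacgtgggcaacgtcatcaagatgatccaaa
Ddx58 promoter: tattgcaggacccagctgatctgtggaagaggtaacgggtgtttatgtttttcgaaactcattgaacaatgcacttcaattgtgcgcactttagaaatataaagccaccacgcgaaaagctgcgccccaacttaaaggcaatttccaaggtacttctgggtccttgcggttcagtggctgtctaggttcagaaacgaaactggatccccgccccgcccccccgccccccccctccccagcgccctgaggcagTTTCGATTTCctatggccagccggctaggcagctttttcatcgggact

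The Ddx58 level was -1.59 and -1.43 on the Ino80 arrays, -1.52 and -1.45 on the Ino80b arrays, -1.25 and -1.46 on the Ino80c arrays, -0.54 and -1.02 on the Ino80e arrays, and -0.28 and -0.05 on the NT arrays. Every knockdown array lay below both NT arrays. The Ino80, Ino80b and Ino80c arrays overlapped each other, and the Ino80e arrays stood between them and NT. RNA fell 2.54-fold in the Ino80 knockdown (a log2 fold change of -1.34 ± 0.19, adjusted p = 0.00853), 2.49-fold in the Ino80b knockdown (-1.32 ± 0.19, adjusted p = 0.0188) and 2.28-fold in the Ino80c knockdown (-1.19 ± 0.19, adjusted p = 0.0255). The Ino80e value of -0.62 ± 0.19 did not pass (adjusted p = 0.105).

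The other 2 kept Ddx58 probes gave the same picture in a fit across all 29586 kept probes. They were at -1.48 and -1.69 in the Ino80, -1.66 and -1.77 in the Ino80b and -1.23 and -1.52 in the Ino80c knockdown, with adjusted p between 0.00494 and 0.0233. In the Ino80e knockdown they were at -0.40 and -0.78 and were not called. The Ino80 call of the brightest probe held in each of the 10 fits that left out 1 array. Its Ino80b call failed without NT replicate 2 (adjusted p = 0.0846) and without Ino80b replicate 1 (0.0996) or 2 (0.123). The Ino80c call was lost without NT replicate 2 (0.104), Ino80c replicate 1 (0.123) or 2 (0.117), and either Ino80b array (0.0516 each).

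Ifih1 encodes MDA5, the helicase for long double-stranded RNA, and no change in it can be read from these arrays. Its level was -5.09 and -4.81 on the Ino80 arrays, -5.50 and -5.31 on the Ino80b arrays, -6.17 and -5.07 on the Ino80c arrays, -5.77 and -6.18 on the Ino80e arrays, and -2.44 and -6.30 on the NT arrays. NT replicate 1 stood far above every other array, whereas NT replicate 2 had the lowest level. In signal units NT replicate 1 was at 156. NT replicate 2 was at 10.8, above Ino80c replicate 1 (9.28) and Ino80e replicate 2 (9.19). Neither these nor NT replicate 2 were well above background. The fold change against NT was -0.58 ± 1.07 in the Ino80 knockdown (adjusted p = 0.739), and without NT replicate 1 it turned to 1.35 (adjusted p = 0.0889). Without NT replicate 2 it was -2.51 and passed (adjusted p = 0.0413). Without NT replicate 1 the sign also turned in the Ino80b (0.90), Ino80c (0.68) and Ino80e (0.33) knockdowns.

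Irf3 encodes a transcription factor that kinases downstream of the sensors activate and that cells keep ready in an inactive form. Its level was 3.33 and 3.46 on the Ino80 arrays, 3.31 and 3.43 on the Ino80b arrays, 3.33 and 3.05 on the Ino80c arrays, 3.43 and 3.46 on the Ino80e arrays, and 2.94 and 2.69 on the NT arrays. Both NT arrays lay below all 8 knockdown arrays, and limma called no Irf3 difference between knockdowns. Irf3 rose 1.5-fold in the Ino80 knockdown (0.58 ± 0.15, adjusted p = 0.0493), just inside the threshold, and by 0.42 relative to the median of all genes. Of the 11 fits with other settings of the processing or the model, 6 called this rise. That call held in 1 of the 10 fits that left out 1 array, the one without NT replicate 1. It was lost without NT replicate 2 (0.172), Ino80 replicate 1 (0.0853) or 2 (0.184), and without any Ino80b (0.0849), Ino80c (0.0661) or Ino80e (0.0867) array. Values of 0.55 (Ino80b), 0.37 (Ino80c) and 0.64 (Ino80e) did not pass (adjusted p = 0.0707, 0.148 and 0.0864). The second Irf3 probe gave 0.51, 0.23, -0.01 and -0.07 in the Ino80, Ino80b, Ino80c and Ino80e knockdowns, with no call.

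Irf7 encodes the factor that amplifies type I interferon production, and its RNA was close to background. Its level was -4.93 and -5.83 on the Ino80 arrays, -5.35 and -4.88 on the Ino80c arrays, -4.30 and -5.15 on the Ino80e arrays, and -5.05 and -6.18 on the NT arrays. Both Ino80b arrays, with measured levels of -5.99 and -6.79, were not well above background. All groups overlapped NT. No fold change against NT passed (adjusted p between 0.289 and 0.783).

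Irf1 encodes a factor that drives antigen presentation and growth control genes downstream of interferon gamma, and it rose in the Ino80 and Ino80b knockdowns. RefSeq gives it 2 promoter windows, and the one at chr11:53769764-53770063, plus strand (GRCm38.p6), holds a gamma-activated site (GAS) core, a motif of genes that respond to interferon gamma, shown in capitals.
Irf1 promoter: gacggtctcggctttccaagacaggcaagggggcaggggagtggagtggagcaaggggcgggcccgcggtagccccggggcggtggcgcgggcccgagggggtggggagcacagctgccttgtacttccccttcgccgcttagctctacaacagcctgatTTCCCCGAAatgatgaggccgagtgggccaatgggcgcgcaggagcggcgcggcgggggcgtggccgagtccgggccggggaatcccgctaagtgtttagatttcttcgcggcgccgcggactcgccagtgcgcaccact

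The Irf1 level was 3.87 and 4.41 on the Ino80 arrays, 3.90 and 4.25 on the Ino80b arrays, 3.57 and 3.68 on the Ino80c arrays, 3.38 and 3.39 on the Ino80e arrays, and 2.90 and 2.73 on the NT arrays. The order of the groups was Ino80, Ino80b, Ino80c, Ino80e and NT, in which the Ino80 and Ino80b arrays overlapped and the other neighbours did not. Irf1 rose 2.51-fold in the Ino80 knockdown (1.33 ± 0.21, adjusted p = 0.0118) and 2.39-fold in the Ino80b knockdown (1.26 ± 0.21, adjusted p = 0.0243). The Ino80c value of 0.81 and the Ino80e value of 0.57 did not pass (adjusted p = 0.0623 and 0.135). The second, dimmer Irf1 probe disagreed. It was at 0.45, 0.33, -0.17 and -0.56 in the Ino80, Ino80b, Ino80c and Ino80e knockdowns, passed nowhere, and had the opposite sign in the last pair. The Ino80 call of the brightest Irf1 probe failed without NT replicate 2 (adjusted p = 0.0587) and without Ino80 replicate 2 (0.0506). The Ino80b call was lost without NT replicate 2 (0.107), either Ino80b array (0.0942 and 0.170), either Ino80c array (0.0524 each) and either Ino80e array (0.0544 each).

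Stat2 and Irf9 encode subunits of the complex that binds the ISRE. The Stat2 level was -0.78 and -0.48 on the Ino80 arrays, -0.79 and -0.89 on the Ino80b arrays, -1.13 and -1.14 on the Ino80c arrays, -0.69 and -0.89 on the Ino80e arrays, and -1.01 and -0.99 on the NT arrays. Only the Ino80c arrays lay below NT, by -0.13 ± 0.14, and no Stat2 difference from NT passed; the widest, 0.37 ± 0.14 in the Ino80 knockdown, had an adjusted p of 0.132. Irf9, printed as Isgf3g in the array design, was at -1.18 and -1.25 on the Ino80 arrays, -0.86 and -1.12 on the Ino80b arrays, -1.14 and -1.09 on the Ino80c arrays, -0.81 and -0.80 on the Ino80e arrays, and -0.57 and -0.59 on the NT arrays. All 8 knockdown arrays lay below NT.

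Irf9 fell 1.56-fold in the Ino80 knockdown (-0.64 ± 0.13, adjusted p = 0.0241). It was at -0.41 in the Ino80b (adjusted p = 0.0945), -0.54 in the Ino80c (0.0542) and -0.22 in the Ino80e knockdown (0.286), none of which passed. The second Irf9 probe, with a standard error of 0.39, was at -0.52 in the Ino80 and -0.86 in the Ino80b knockdown and was not called. Irf9 dropped out of the Ino80 calls without NT replicate 2 (0.0751), Ino80 replicate 1 (0.0552) or 2 (0.107), and either Ino80e array (0.0525 each).

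**Figure D2:**
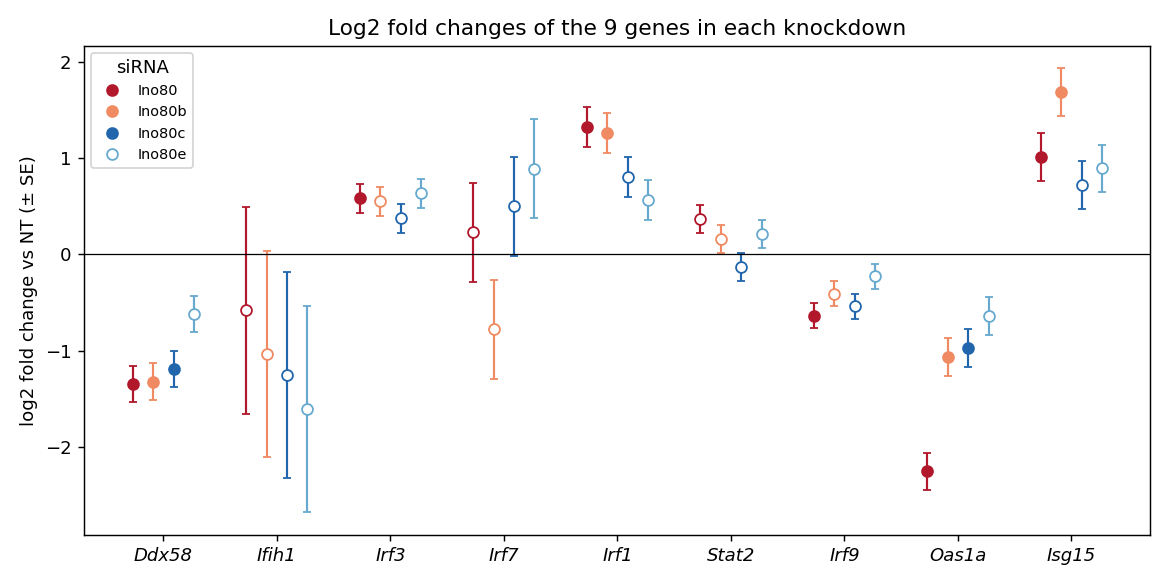
Log2 fold change against NT (circle, filled where called, and standard error) of each gene in the 4 knockdowns, n = 2 arrays a group. Oas1a reaches -2.25 in the Ino80 knockdown, and no gene is called in the Ino80e knockdown.

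Oas1a encodes an oligoadenylate synthetase, an enzyme that turns double-stranded RNA into a signal for RNA decay, and it had the lowest fold change of the 9 genes in the Ino80 knockdown. Its only probe lies at chr5:120132325-120132384, minus strand (mm7). Whether it also measures RNA of related Oas1 genes was not tested. The RefSeq promoter is at chr5:120907476-120907775, minus strand (GRCm38.p6). Capitals mark a GAS core at position -98 from the start site and a pair of overlapping ISRE cores nearer to it.
Oas1a probe: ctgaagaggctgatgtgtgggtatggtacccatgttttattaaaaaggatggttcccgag
Oas1a promoter: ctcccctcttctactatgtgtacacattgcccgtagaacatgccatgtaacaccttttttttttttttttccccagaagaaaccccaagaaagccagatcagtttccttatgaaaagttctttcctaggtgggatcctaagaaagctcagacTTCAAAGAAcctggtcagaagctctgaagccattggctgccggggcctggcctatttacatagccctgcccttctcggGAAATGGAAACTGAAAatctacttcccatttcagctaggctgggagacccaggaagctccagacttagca

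The Oas1a level was -4.19 and -3.92 on the Ino80 arrays, -2.98 and -2.75 on the Ino80b arrays, -2.80 and -2.73 on the Ino80c arrays, -2.66 and -2.21 on the Ino80e arrays, and -1.91 and -1.69 on the NT arrays. The Ino80 arrays were below all others and the NT arrays above all others. Of the groups between them, the Ino80b and Ino80c arrays overlapped, and the Ino80e arrays lay above both. RNA fell 4.76-fold in the Ino80 knockdown (-2.25 ± 0.19, adjusted p = 0.00261), 2.09-fold in the Ino80b knockdown (-1.07 ± 0.19, adjusted p = 0.0314) and 1.96-fold in the Ino80c knockdown (-0.97 ± 0.19, adjusted p = 0.0381). The Ino80e value of -0.64 ± 0.19 did not pass (adjusted p = 0.105).

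The Ino80 call of Oas1a held in each of the 10 fits that left out 1 array (-2.39 to -2.12). Its size depended on the background correction: with normexp it was -1.41, a 2.66-fold fall, and in the authors' deposited table -1.50, 2.82-fold, and it was called in both. The Ino80b call was lost without NT replicate 2 (adjusted p = 0.127), either Ino80b array (0.131 and 0.152) and either Ino80c array (0.063 each). The Ino80c call was lost without NT replicate 2 (0.153), either Ino80c array (0.163 and 0.140), either Ino80b array (0.0668 each) and either Ino80e array (0.0554 each).

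Isg15 encodes a ubiquitin-like protein that is attached to other proteins during an interferon response, and it rose in the Ino80 and Ino80b knockdowns. RefSeq places its promoter at chr4:156200769-156201068, minus strand (GRCm38.p6), whereas the files place its only probe on another chromosome (mm7). Whether the probe measures the gene or a copy of it elsewhere was not tested. The promoter holds 3 overlapping ISRE cores (capitals) at positions -78, -72 and -66 from the start site.
Isg15 promoter: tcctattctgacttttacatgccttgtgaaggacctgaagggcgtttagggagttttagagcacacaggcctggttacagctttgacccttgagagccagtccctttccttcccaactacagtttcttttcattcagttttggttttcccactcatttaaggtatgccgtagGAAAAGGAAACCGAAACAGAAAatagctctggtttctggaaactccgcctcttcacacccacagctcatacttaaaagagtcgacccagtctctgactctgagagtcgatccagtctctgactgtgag

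The Isg15 level was -3.52 and -3.21 on the Ino80 arrays, -3.01 and -2.38 on the Ino80b arrays, -3.58 and -3.73 on the Ino80c arrays, -3.28 and -3.69 on the Ino80e arrays, and -4.47 and -4.28 on the NT arrays. Both NT arrays lay below all knockdown arrays, at signals of 38.3 and 43.7 against 51.5 to 134 on the knockdown arrays. Isg15 rose 3.22-fold in the Ino80b knockdown (1.69 ± 0.25, adjusted p = 0.0195) and 2.01-fold in the Ino80 knockdown (1.01 ± 0.25, adjusted p = 0.0418). The Ino80c value of 0.72 and the Ino80e value of 0.89 did not pass (adjusted p = 0.108 and 0.0957). The size depended on the background correction: with normexp the Ino80 value was 0.40 and was no longer called (adjusted p = 0.111), and in the authors' deposited table, which has no background subtraction, it was 0.44 (adjusted p = 0.0794). The Ino80b value was 0.88 with normexp, a 1.84-fold rise, and 0.83 in that table, 1.78-fold, and was called in both.

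The Ino80 call of Isg15 held in 2 of the 10 fits that left out 1 array, those without an Ino80b array. It was lost without NT replicate 1 (adjusted p = 0.0969) or 2 (0.107), Ino80 replicate 1 (0.0642) or 2 (0.174), any Ino80c array (0.0697) and any Ino80e array (0.0582). The Ino80b call of Isg15 failed without NT replicate 2 (0.0748) and without Ino80b replicate 1 (0.0718) or 2 (0.118).

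**Figure D3:**
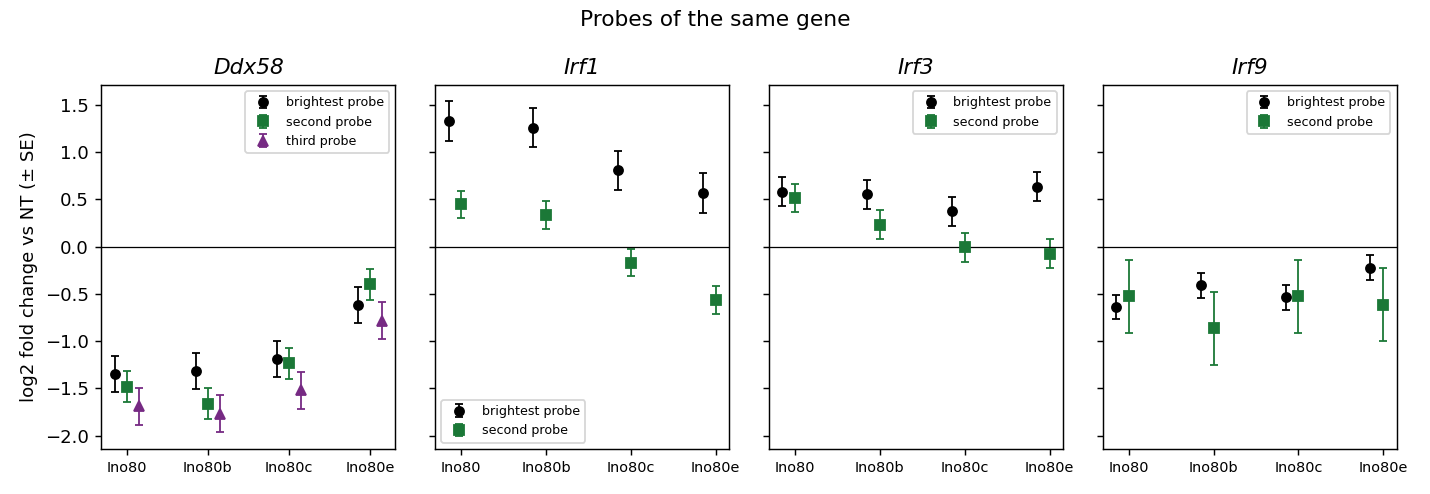
Log2 fold change against NT with its standard error for each kept probe of the 4 genes with several kept probes, by knockdown. The 3 Ddx58 probes fall together, whereas the probes of Irf1 and Irf3 part in the Ino80c and Ino80e knockdowns.

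The promoter windows were searched for 2 motifs: an ISRE core, made of the letters GAAA, any 2 bases and GAAA again, on both strands, and a GAS core written TTCNNNGAA, which reads the same on both strands. The ISRE core was in the windows of 5 of the 9 genes (Ddx58, Ifih1, Oas1a, Isg15 and Stat2), against 3.44% of the 32851 mouse windows of the same length and 3.99% of genes. It was also in the windows of 19 of the 76 tested genes of the pathway lists below that had a promoter entry. These shares depend on how the core is written. A narrower form, in which the first of the 2 middle bases must be G, was searched at the same time and was in the windows of 0 of the 9 genes, against 1.10% of windows and 1.28% of genes. The motifs were chosen after the data were seen, and capitals mark the broader form. The GAS core was in windows of 2 of the 9 (Irf1 and Oas1a), against 8.30% of windows and 9.55% of genes. Irf3, Irf7 and Irf9 had neither in these windows. The genes with an ISRE core did not move as 1 group: Ddx58 and Oas1a fell and Isg15 rose in the Ino80 and Ino80b knockdowns, and Stat2 and Ifih1 were not called.

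Knockdowns were also compared with each other, in 6 pairs. On shared slides, limma called 0 of the 9 genes between Ino80 and Ino80b knockdowns (0.0678% of all genes) and 0 between Ino80c and Ino80e knockdowns (0.0339% of all genes). At an unadjusted p under 0.05, 2 of 9 passed in the first pair (8.96% of all genes), both lower with Ino80 siRNA, and 3 of 9 in the second (10.7% of all genes), all lower with Ino80c siRNA. The widest difference on a shared slide was Oas1a, lower with Ino80 than with Ino80b siRNA by -1.19 ± 0.19 (95% interval -1.64 to -0.73, adjusted p = 0.152). Ddx58 differed by -0.03 between the same groups, with an interval of -0.47 to 0.42. Between Ino80c and Ino80e knockdowns Ddx58 was at -0.57 (interval -1.01 to -0.13, adjusted p = 0.324).

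Across slides 2 and 3, Oas1a was lower with Ino80 than with Ino80c siRNA (-1.28 ± 0.19, adjusted p = 0.0375), the only call among the 9, against 1.04% of all genes. That call was lost in each of the 10 fits that left out 1 array (adjusted p from 0.0523 to 0.198). Oas1a was also the only gene of the 9 called between Ino80 and Ino80e knockdowns (-1.61 ± 0.19, adjusted p = 0.0102), against 3.14% of all genes, and this was lost without Ino80 replicate 1 (0.0535) or Ino80e replicate 2 (0.086). Between Ino80b and Ino80c knockdowns limma called 0 of 9 (0.029% of all genes), with 2 of 9 at an unadjusted p under 0.05 (10.1%). Between Ino80b and Ino80e knockdowns it called 0 of 9 (0.687%), with 4 of 9 at an unadjusted p under 0.05 (14.4%). In these 4 pairs the knockdown and the slide cannot be told apart.

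Other genes of the pathway were taken from 4 lists with 108 genes, of which 91 were tested. In the Ino80 knockdown 12 rose and 3 fell, 16.5% against 12.4% of all genes. In the Ino80b knockdown 6 rose and 1 fell (7.69% against 6.48%), in the Ino80c knockdown 2 rose and 1 fell (3.30% against 6.37%), and in the Ino80e knockdown limma called 0. The median fold change of the 91 genes was 0.27, 0.13, 0.19 and 0.18 in the Ino80, Ino80b, Ino80c and Ino80e knockdowns, close to the medians of all genes. Of the interferon ligands, 3 of 9 passed the filter on dim probes and none was called; Ifnb1, the first interferon made by most cells, did not pass it.

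Of 23 tested sensors and adaptors only Tank, an adaptor of the kinase TBK1, was called. Its level was 0.34 and 0.30 on the Ino80 arrays, 0.31 and 0.28 on the Ino80b arrays, and -0.22 and -0.27 on the NT arrays, with no overlap. It rose by 0.56 in the Ino80 (adjusted p = 0.0247) and 0.54 in the Ino80b knockdown (0.0423). Of 23 tested receptors and signalling genes, 6 rose and 1 fell in the Ino80 knockdown, 30.4% against 12.4% of all genes. In the Ino80b knockdown 1 rose (4.35% against 6.48%). In the Ino80c knockdown 1 rose and 1 fell (8.7% against 6.37%), and in the Ino80e knockdown limma called 0. Tyk2, the kinase of the type I interferon receptor, fell in the Ino80 (-0.64, adjusted p = 0.0343) and Ino80c knockdowns (-0.86, 0.0281). The receptor chains Ifngr1 (1.11, adjusted p = 0.0224) and Il10rb (0.92, 0.0137), and Irf8 (1.03, 0.0189), rose in the Ino80 knockdown.

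Of 42 tested interferon-stimulated effectors, 5 rose and 2 fell in the Ino80 knockdown (16.7% against 12.4% of all genes), and 4 rose and 1 fell in the Ino80b knockdown (11.9% against 6.48%). In the Ino80c knockdown 1 of them rose (2.38% against 6.37%), and in the Ino80e knockdown limma called 0. Oas2, another oligoadenylate synthetase, fell, at -1.21 in the Ino80 (adjusted p = 0.00514) and -0.90 in the Ino80b knockdown (0.0226). Its level was -3.76 and -3.77 on the Ino80 arrays, -3.34 and -3.58 on the Ino80b arrays, and -2.61 and -2.52 on the NT arrays. The interferon-inducible GTPases Gbp3 (1.83 and 1.78) and Irgm1 (1.07 and 1.23), the immunoproteasome subunit Psmb10 (0.93 and 0.89) and the antibody receptor Trim21 (1.07 and 0.85) rose in the Ino80 and Ino80b knockdowns, with adjusted p between 0.00768 and 0.0395. Parp12 rose in the Ino80 knockdown (1.35, adjusted p = 0.0298) and Lgals3bp in the Ino80c knockdown (0.96, 0.0381).

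In the fits that left out 1 array, the Ino80 calls of Oas2 and Irgm1 held in 10 of 10. Those of Gbp3, Ifngr1, Il10rb, Psmb10 and Trim21 were lost without NT replicate 2 or Ino80 replicate 2 (highest adjusted p 0.0976), and that of Irf8 without either Ino80 array (0.0529 and 0.0863). Parp12 was called in 4 of 10 such fits (lost without either array of NT, Ino80 or Ino80e), Tyk2 in 2 (those without NT replicate 1 or Ino80 replicate 1) and Tank in 1 (without NT replicate 1). Each Ino80b call of these genes failed without NT replicate 2 and without either Ino80b array (adjusted p up to 0.231). Those of Oas2, Gbp3, Psmb10, Tank and Trim21 were also lost without either Ino80c array, and the last 4 of them also without either Ino80e array. Tank was lost in addition without either Ino80 array (0.0545). The Ino80c calls of Tyk2 and Lgals3bp were lost without NT replicate 2 and without any array of Ino80b, Ino80c or Ino80e (adjusted p up to 0.158), and Lgals3bp also without NT replicate 1 (0.0562).

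**Figure D4:**
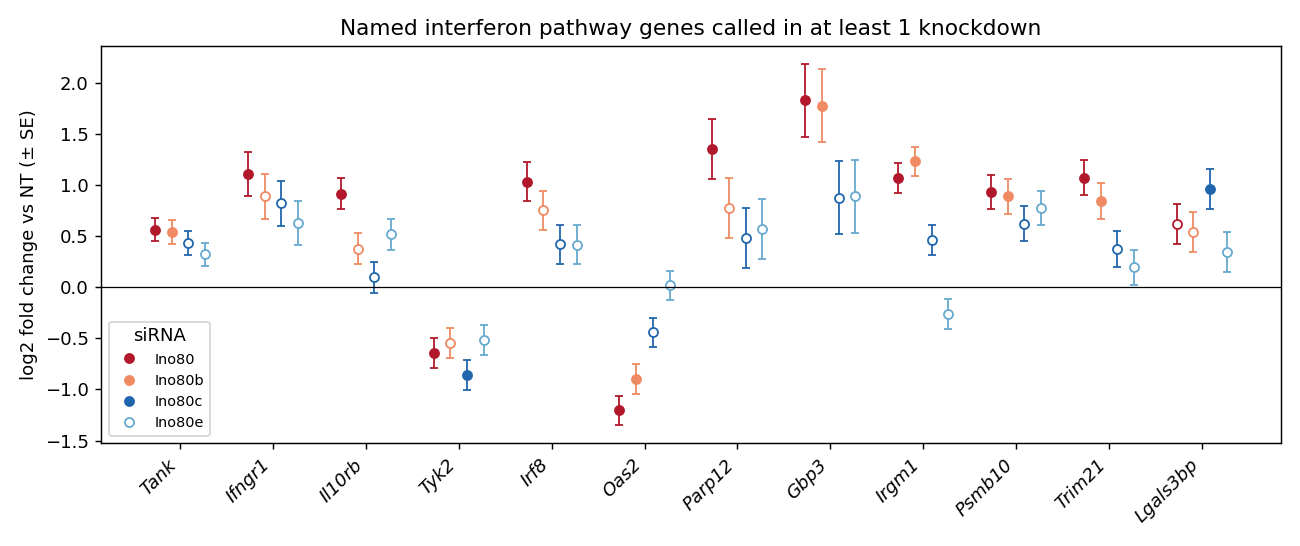
Log2 fold change against NT (circle, filled where called, and standard error) of the named pathway genes in the 4 knockdowns, n = 2 arrays a group. Oas2 and Tyk2 are the genes below 0 among the filled circles.

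For the 6 genes called in at least 1 knockdown, the tested genes with the most similar pattern were found by the root-mean-square difference of log2 levels over the 10 arrays, each gene centred on its own mean. The nearest 3 lie below the median of all genes by choice, so the values describe and test nothing. Over the 10 arrays the standard deviation was 0.56 for Ddx58, 0.79 for Oas1a, 0.60 for Isg15, 0.54 for Irf1, 0.26 for Irf3 and 0.25 for Irf9. Nearest to Ddx58 were the array entry NAP000727-001 (0.11), Tppp3 (0.14) and Eef2kmt (0.17), against a median of 0.66 over all genes. Nearest to Oas1a were Shisa2 (0.19), 1700029P11Rik (0.20) and Fcgrt (0.22), against 0.84. Nearest to Irf1 were Fam171b (0.088), Ptpn13 (0.092) and Fgf5 (0.10), against 0.56. For Isg15 they were Rdh11 (0.26), Fam171b (0.28) and Gyg (0.29), against 0.61. For Irf3 they were Dpy30 (0.034), Atp5mpl (0.053) and Zfyve27 (0.058), against 0.36, and for Irf9 Zdhhc18 (0.080), Dennd4b (0.083) and Acaa1b (0.087), against 0.41.

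Markers of other cells moved beside these genes, and their part in the result was not tested. Of the endoderm list 5 of 6 genes were tested, and all 5 (Gata4, Gata6, Sox17, Foxa2 and Dab2) fell in the Ino80 knockdown (4.77% of all genes lower). Their summed level, in multiples of the 75th percentile, was 0.735 to 0.762 on the Ino80 arrays, 1.52 to 1.73 on the Ino80b arrays, 1.94 to 2.32 on the Ino80c arrays, 3.02 to 3.61 on the Ino80e arrays and 2.43 to 2.80 on the NT arrays. The sum on the Ino80b arrays mixes directions. Its brightest gene was Foxa2 (0.619 to 0.828), at a log2 fold change of 1.35 that was not called, whereas Gata6, Sox17 and Dab2 fell. Of the macrophage and blood list 8 of 10 genes were tested, with a summed level of 0.598 to 0.906 on the Ino80 arrays and 0.878 to 1.27 on the other knockdown arrays, against 1.59 to 1.62 on the NT arrays. The brightest gene of that list, Cd68, fell in the Ino80 knockdown (to levels of 0.212 to 0.285 on its arrays, against 0.918 to 1.04 on the NT arrays), whereas Cd14 rose (log2 fold change 1.00) and the median fold change of the 8 genes was 0.10. Adgre1 and Lyz2 of that list did not pass the filter, and Ptprc was not well above background on either NT array. Of 11 tested fibroblast genes 4 rose in the Ino80 knockdown (7.65% of all genes higher). Of these, Dcn and Twist2 were also called higher in the Ino80b (3.9% of all genes) and Ino80c knockdowns (4.85%). The median fold change of the 11 was 0.68 in the Ino80 knockdown. Their summed level, 15.2 to 16.7 on the Ino80 arrays against 18.1 to 23.2 on the NT arrays, was mostly that of Vim (12.9 to 13.9 against 16.1 to 21.3), which was not called. Of 9 tested stem cell markers 5 fell in the Ino80 knockdown (4.77% of all genes lower). Of the same 9, 3 fell in the Ino80b (2.58% of all genes) and 2 in the Ino80c knockdown (1.52%). The summed level of the 9 was 418 to 502 on the Ino80 arrays against 606 to 644 on the NT arrays. Dppa5a made 263 to 320 and 344 to 352 of these sums.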

How the data were processed

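Each sample was hybridised to 1 Agilent 4x44K array, read in 1 colour (green), whereas the labels name the dye Cy5. Groups and replicate numbers come from the sample titles, and the design text calls the samples of a group biological replicates. The deposited scanner files, made with Feature Extraction 9.5.3.1 per the file headers, give each spot's intensity as a processed signal that is background-subtracted and not scaled between arrays. The log2 values of the authors' deposited table matched the unsubtracted mean signal up to a constant for each array, with medians between 6.76 and 6.87. No source used here says where the constants come from, so how that table was scaled between arrays is unknown.

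Control spots and spots with outlier flags were left out (31 probes), spots of a probe were averaged, and log2 processed signals were set relative to the array's 75th percentile. A probe was kept if a group had it well above background on its 2 arrays (29586 of 41143). A gene was represented by its brightest kept probe. Of 41174 probes 22951 were named through their accession in RefSeq (GRCm38.p6), and the rest kept the name of the array design. limma 3.58.1 (lmFit and eBayes, R 4.3.3, data.table version 1.17.8) was fitted on all 10 arrays with group as the only term (5 residual and 2.23 prior degrees of freedom). P-values are two-sided, adjusted by Benjamini-Hochberg over 20662 genes, and the same code was tested on simulated data. The number of arrays limits the precision.

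The genes and lists were chosen with earlier results of these data known. All 9 genes are named. Of the pathway lists, genes called against NT in at least 2 knockdowns are named, with the 5 of largest change among those called in 1, and for each called gene of the 9 the 3 with the nearest pattern. One named pathway gene, which stays in the counts, and 1 probe sequence are not reported here. Promoters are RefSeq windows, and the motifs were chosen after the data were seen. A narrower ISRE form was searched in the same step. Replicate numbers were checked for pairing by correlating the deviations of same-numbered arrays. Between groups other than Ino80c, r was 0.26 to 0.32, and between Ino80c and the other groups 0.0042 to 0.14. The numbers were not taken to pair the samples, and fits with them as a block are given below.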

Additional observations from a re-analysis of the deposited data

How the results depend on the processing

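The fits were repeated with other background corrections, scalings, filters, probe rules and spread estimates, with the replicate number as a block, with only the 4 arrays compared, and without each array in turn. Repeating them for the pathway lists and for Oas1a across slides was added after seeing the data. Slide as a random block could not be fitted, because each group lies on 1 slide. Where a gene of the 9 was called, all 252 refitted values kept their sign, but 86 of them were no longer called. For many of these the sign could not change, because the refit leaves the fold change as it was. Such refits are those with the replicate block or a trend and robust prior, and those without an array of a group outside the comparison. Over the comparisons with NT and both pairs on a shared slide, 982 of 1122 refitted values kept their sign and side of the threshold. Most of these were values that were not called in the fit reported.

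The number of the 9 genes called in the Ino80 knockdown was 6. It was 5 with normexp, quantile normalization, median centring or the authors' deposited table. With the mean of all kept probes of a gene it was 4, and 3 with no filter on dim probes or with array weights. The share of all genes called there was 12.4%, and 13.9% with quantile normalization and 11.5% with median centring. It was 11.2% with the mean of probes, 4.55% with no filter and 3.37% with array weights. In the Ino80b knockdown the number of the 9 called was 4, and 3 with array weights and 2 with no filter (2.65% and 0.904% of all genes, against 6.48%). Irf3 was gained there with normexp, with probes well above background on all 10 arrays, with the replicate block and with a trend and robust prior, and Irf9 with normexp and the authors' deposited table. In the Ino80c knockdown it was 2, and 3 (with Irf9) with median centring or the authors' deposited table. It was 4 (with Irf1 and Irf9) with normexp, with the replicate block and with a trend and robust prior. The same 4 were called with only probes well above background on all 10 arrays, where Ifih1 and Irf7 were not tested (13.1% of all genes called). With no filter or array weights the number was 0 (0.521% and 1.21% of all genes, against 6.37%). In the Ino80e knockdown it was 0, and 3 with normexp (Isg15, Irf3 and Irf7), 2 in the authors' deposited table (Ddx58 and Oas1a), 2 with the replicate block (Oas1a and Irf3) and 1 with a trend and robust prior (Irf3). With only the 4 arrays compared it was 0 in all 4 knockdowns. Between Ino80 and Ino80b knockdowns it was 0, and 1 with the replicate block (Oas1a, adjusted p = 0.0347). Without 1 array, the count ranged from 2 to 5 (Ino80), 0 to 5 (Ino80b), 0 to 3 (Ino80c) and 0 to 0 (Ino80e and both pairs on a shared slide).

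Of the pathway lists, 15 genes were called in the Ino80 knockdown, and 23 with normexp, with the authors' deposited table or with a trend and robust prior, 34 with the replicate block and 4 with array weights. In the Ino80b knockdown 7 were called, and 16 with normexp or a trend and robust prior, 13 with the authors' table or with probes well above background on all 10 arrays, 25 with the replicate block, 2 with array weights and 1 with no filter. In the Ino80c knockdown 3 were called, and 15 with normexp, 1 with quantile normalization, 6 with the authors' table, 8 with probes well above background on all 10 arrays, 16 with the replicate block, 12 with a trend and robust prior, and 0 with no filter or array weights. In the Ino80e knockdown 0 were called, and 18 with normexp, 3 with the authors' table, 8 with the replicate block and 4 with a trend and robust prior. With only the 4 arrays compared the counts were 0. The share of all genes called moved with these counts. In the Ino80, Ino80b, Ino80c and Ino80e knockdowns it was 18.6%, 15.9%, 20.5% and 24.8% with normexp, 18.1%, 11.3%, 10.7% and 5.36% in the authors' table, 23.8%, 17.7%, 18.1% and 9.46% with the replicate block, and 18%, 14.2%, 12.7% and 8.78% with a trend and robust prior. The pathway genes called in the Ino80e knockdown were 19.8%, 3.3%, 8.79% and 4.4% of those tested under the same settings, below the share of all genes in each. They were 25.3%, 25.3%, 37.4% and 25.3% in the Ino80 and 17.6%, 14.3%, 27.5% and 17.6% in the Ino80b knockdown, above it in each. In the Ino80c knockdown they were 16.5%, 6.59% and 17.6%, below it, and 13.2% with a trend and robust prior, above it. Without 1 array the counts ranged from 2 to 20 (Ino80), 0 to 9 (Ino80b), 0 to 8 (Ino80c) and 0 to 0 (Ino80e).

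Of the other called values, Gbp3 in the Ino80b (2.26-fold, against 3.43-fold in the fit reported) and Lgals3bp in the Ino80c knockdown (1.23-fold and not called, against 1.95-fold) moved by over 1.5 times in the authors' table, as did Oas1a between Ino80 and Ino80c (-0.63) and between Ino80 and Ino80e knockdowns (-0.85). Oas2 was at -0.68 (Ino80) and -0.37 (Ino80b) with normexp.

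Values that were not called and changed sign were Ddx58 between Ino80 and Ino80b knockdowns (0.072 in the authors' table, 0.078 with the mean of probes, -0.11 to 0.057 without 1 array), Ifih1 with normexp (-0.023 between Ino80 and Ino80b, -0.067 between Ino80c and Ino80e), Irf3 between Ino80 and Ino80b with median centring (-0.0063), Irf9 between the same groups with the mean of probes (0.055), and Irf7 against NT (-0.023 with quantile normalization in the Ino80 and 0.0050 with normexp in the Ino80b knockdown). Without 1 array, Ifih1 ranged from -2.51 to 1.35 (Ino80), -2.97 to 0.90 (Ino80b), -3.18 to 0.68 (Ino80c) and -3.54 to 0.33 (Ino80e) against NT, and from -0.20 to 0.91 between Ino80c and Ino80e. Irf7 ranged from -0.33 to 0.79 (Ino80) and -0.062 to 1.06 (Ino80c) against NT, and from -0.82 to 0.035 between Ino80c and Ino80e. Irf1 ranged from -0.20 to 0.34 and Irf3 from -0.035 to 0.090 between Ino80 and Ino80b, and Isg15 from -0.38 to 0.035 between Ino80c and Ino80e. The cause of these changes was not tested.

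Over all genes, the number called against NT ranged over the alternatives from 0 to 4917 (Ino80, 2566 in the fit reported), 0 to 3648 (Ino80b, 1339), 0 to 4231 (Ino80c, 1317) and 0 to 5134 (Ino80e, 1). The share of calls that were higher also depended on the scaling: it was 60.1% in the Ino80b knockdown and 38.0% in the authors' table, and in the Ino80c knockdown 76.2%, 54.1% with quantile normalization, 65.5% with median centring and 27.8% in the authors' table.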
